A study of Homo sapiens with 32 samples.

Results

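The YAP and TEAD target genes described here were CCN1, CCN2, ANKRD1, AMOTL1, AMOTL2, LATS2, AJUBA and CRIM1, 8 of the 47137 gene entries in the count and TPM tables (18583 entries had values). The rule took the entries whose gene symbol was on this list and used no measured value. RNA was sequenced from HGrC1 cells, an established line of immortalized human granulosa cells, which line the ovarian follicle and nourish the oocyte. Replicates 1 to 4 are frozen vials of the line that were grown up apart from one another. Each supplied a vehicle control (0.05% DMSO) and 3 cultures with PFOS (perfluorooctane sulfonate, a persistent fluorinated surfactant), of which one received 0.01 µM, one 0.1 µM and one 1 µM. PFOS was added again at every passage, and RNA was taken once at 6 weeks and once at 12 weeks, so that 32 libraries formed 8 groups of n = 4. All groups, the controls included, were kept in 10% fetal bovine serum with a hormone at 100 nM, which is estradiol in the labels and testosterone in the study's methods. All libraries therefore came from 1 cell line, and the replicates are vials of that line rather than donors.

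YAP and its relative TAZ are transcriptional coactivators that cannot bind DNA themselves and act through the TEAD factors. Kinases of the Hippo pathway, with LATS1 and LATS2 as the last step, phosphorylate YAP and TAZ and hold them in the cytoplasm, while spreading, stiff substrate, actin tension and serum lipids let them enter the nucleus. In the ovary the pathway is known for its part in follicle growth and in the expression of the CCN growth factors by granulosa cells. Among the 8 genes, CCN1 and CCN2 encode secreted matrix-associated proteins, ANKRD1 encodes an ankyrin-repeat protein, and CRIM1 encodes a transmembrane protein that binds BMPs. The other 4 encode proteins that act back on the pathway: AMOTL1 and AMOTL2 bind YAP and hold it outside the nucleus, LATS2 is the kinase that inhibits it, and AJUBA is a LIM scaffold that restrains the LATS kinases.

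On GRCh38.p14 the genes lay on separate chromosomes: CCN1 (gene ID 3491) on chromosome 1 from 85580761 to 85583950, CCN2 (1490) on chromosome 6 from 131948176 to 131951372, and ANKRD1 (27063) on chromosome 10 from 90912096 to 90921087. AMOTL1 (154810) lay on chromosome 11 from 94706460 to 94876748. AMOTL2 (51421) was on chromosome 3 from 134355345 to 134375417, LATS2 (26524) on chromosome 13 from 20973036 to 21061586 and AJUBA (84962) on chromosome 14 from 22971177 to 22982551. For CRIM1 (51232), on chromosome 2, the deposited start did not match the RefSeq annotation of the same build, and the RefSeq span of 36355778 to 36551135 is given.

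RefSeq promoters (GRCh38.p14, from 250 bases before to 50 after a start) were matched for 6 of the 8 genes, all but CCN1 and CRIM1. For 5 of them the start is that of the span given above, while the window of AMOTL1 (chr11:94768106-94768405) lies inside the printed span and not at its start. The windows were searched on both strands for GGAATG or its complement CATTCC, the short core of TEAD sites. Of 35116 promoters of this length, 14% held at least 1 match, 1.37% at least 2 and 0.128% at least 3. CCN2 held 3 matches, at −169, −104 and −95 from the start, and ANKRD1 held 2, at −220 and −128, all on the strand of the gene. LATS2 held 1, at position 9 after the start base, and the windows of AMOTL1, AMOTL2 and AJUBA held none. The AP-1 site (TGAGTCA or TGACTCA, in 4.95% of promoters) and the CArG box bound by SRF (in 1.29%) were found in none of the 6. The stretches of CCN2 (chr6:131951450-131951553, minus strand) and ANKRD1 (chr10:90921198-90921319, minus strand) that hold the matches are shown 5′ to 3′, with the matches in capitals. They were chosen because, of the 6 genes, only these had matches before the start, and not for their expression. A match is a string of letters and not a measured binding site.
CCN2: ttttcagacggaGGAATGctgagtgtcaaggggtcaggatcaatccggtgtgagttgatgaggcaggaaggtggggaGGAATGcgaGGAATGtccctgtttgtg
ANKRD1: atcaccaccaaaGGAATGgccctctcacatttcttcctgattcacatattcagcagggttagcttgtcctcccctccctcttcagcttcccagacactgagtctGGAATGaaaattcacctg

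Depth was nearly equal, with 17907057 to 18553350 counts per library. Markers of granulosa cells were low in this line. FOXL2 lay between 0.32 and 1.19 TPM and AMH between 10.2 and 17.6 TPM. CYP19A1 (aromatase) had 0 counts in 31 of the 32 libraries and 1 count in the other, and FSHR and LHCGR were listed without values. KRT19, an epithelial keratin, lay between 1713 and 2456 TPM and COL1A1, a stromal collagen, between 405 and 722 TPM. Other markers of these cell types were lower. The epithelial EPCAM lay between 0.59 and 1.93 TPM. Of the stroma genes, LUM lay between 24.6 and 40.9 TPM, PDGFRA between 0.01 and 0.69 TPM and DCN between 0.04 and 0.27 TPM. Transcripts of liver genes were found at a low level that differed between groups. APOA1 (5.54 to 14.6 TPM) and SERPINA1 (4.04 to 10.3 TPM) had counts in every library. ALB, AFP, AHSG and APOB, which the line should lack, had 0 counts in 7, 8, 8 and 8 of the 32 libraries. The sums below hold both kinds of genes. The summed counts of 10 liver genes lay between 214 and 312 per library in the control and between 252 and 326 at 0.01 µM after 6 weeks. They lay between 399 and 500 at 0.1 µM and between 390 and 453 at 1 µM. After 12 weeks they lay between 360 and 389 at 0.01 µM, 311 and 393 at 0.1 µM and 371 and 523 at 1 µM. Those of the 12-week control lay between 309 and 1458, with the highest sum in the third library. In bulk RNA of this kind, a change in the number of cells of a type and a change in RNA per cell cannot be told apart.

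All 8 genes were expressed in every library and passed the filter on low counts in every fit. On the TPM scale, which is per transcript length and allows levels of different genes to be compared, CCN1 was by far the highest, with a mean of 1785 ± 105 TPM (SD, n = 32) and rank 84 among all entries. CCN2 followed with 409 ± 47.6, AMOTL2 with 147 ± 10.9, CRIM1 with 122 ± 9.08 and AJUBA with 89.1 ± 15 TPM. ANKRD1 had 58.8 ± 32, LATS2 25.9 ± 3.62 and AMOTL1 9.72 ± 0.836 TPM. The order of the means thus put the secreted CCN proteins first, and the LATS2 kinase and AMOTL1 last. The spread over the 32 libraries was uneven. Single genes are given from here on in CPM, counts scaled to library size by TMM over all libraries. On this scale the coefficient of variation was 53.6% for ANKRD1, 17.6% for AJUBA, 14.7% for LATS2 and 11.5% for CCN2, but only 4.98 to 6.40% for CCN1, AMOTL1, AMOTL2 and CRIM1. ANKRD1, LATS2 and AJUBA differed most between the 2 times. Of the 8 genes, CCN2 had the lowest adjusted p against the control at 0.1 and 1 µM PFOS after 6 weeks (edgeR), but not the widest range of group means.

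**Figure D1:**
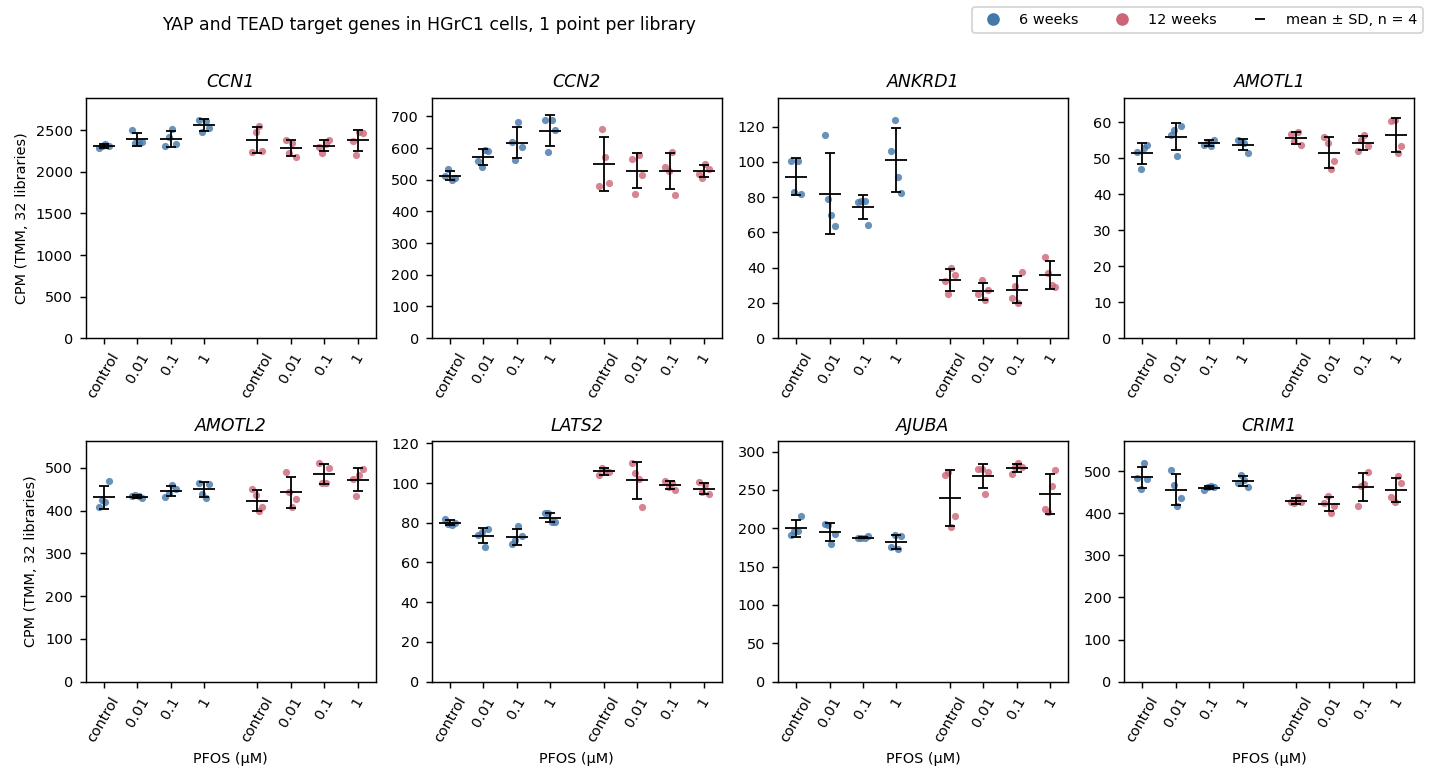
CPM after TMM scaling (vertical axis, linear and starting at 0) of the 8 YAP and TEAD target genes by PFOS concentration, with 6 weeks in blue and 12 weeks in red. Points are libraries and lines are the mean ± SD of n = 4. ANKRD1 fell from 63.9–124 CPM at 6 weeks to 20.2–46.2 CPM at 12 weeks, and the means of CCN2 at 6 weeks went from 513 CPM in the control to 655 CPM at 1 µM PFOS.

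To ask whether PFOS changed these genes, each concentration was compared with the control of the same time, and the 3 comparisons of a time share their control libraries. CCN2, the connective tissue growth factor, was the only one of the 8 genes with a significant difference after 6 weeks, and it was higher at 0.1 and 1 µM PFOS. In the control, CCN2 was at 513, 533, 500.5 and 505 CPM in vials 1 to 4. At 0.01 µM it was at 559, 541, 595 and 592 CPM. At 0.1 µM it was at 618, 563, 682 and 604 CPM, and at 1 µM at 688, 587, 689.5 and 656 CPM. Every exposed library at 6 weeks was thus above all 4 control libraries, and each vial was higher than its own control at each concentration. The control mean was 513 ± 14.4 CPM (SD, n = 4), and the means at 0.01, 0.1 and 1 µM were 572 ± 26.1, 617 ± 49.0 and 655 ± 48.0 CPM, that is 1.115, 1.203 and 1.277 times the control. By edgeR's quasi-likelihood test, the log2 fold change of CCN2 was 0.26 (SE 0.0523, adjusted p = 0.0118) at 0.1 µM and 0.35 (SE 0.0523, adjusted p = 0.00173) at 1 µM. At 0.01 µM it was 0.16 (SE 0.0523), and the adjusted p of 0.453 did not pass. None of these changes reached 2-fold. CCN2 was higher at 1 than at 0.1 µM in 4 of 4 vials, but the groups overlapped and the difference did not pass (log2 fold change 0.09, SE 0.0521, adjusted p = 0.852, edgeR).

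A gene was called at an adjusted p at or under 0.05 over all genes tested. The number called among the 8 was 0 at 0.01 µM after 6 weeks (3 had an unadjusted p under 0.05), where 0% of the 12836 genes tested were called and DESeq2 called 0 of the 8 as well. It was 1 at 0.1 µM, where 4.24% of all genes were called, and 1 at 1 µM, where 0.28% were called. These shares of all genes changed with the libraries used, and leaving out a replicate also made every group smaller. At 0.1 µM the 544 genes called became 128, 570, 22 and 77 without replicates 1, 2, 3 and 4 and 49 with all 32 libraries in one fit. At 1 µM the 36 genes became 24, 178, 12 and 16 without each replicate in turn, 5 with all 32 libraries and 66 with the vial as a block. The median log2 fold change of the 8 genes was −0.01 at 0.01 µM and −0.02 at 0.1 µM. There were 4 estimates above and 4 below 0 in both, and the median of all genes was 0.00. At 1 µM the median of the 8 was 0.06, with 6 estimates above and 2 below 0. CCN2 lay above all control libraries at 0.01, 0.1 and 1 µM. The summed counts of the liver list lay above those of all control libraries at 0.1 and 1 µM, and at 0.01 µM they overlapped with the control. Their part in the CCN2 result was not tested. CCN2 no longer passed at 0.1 µM when replicate 1 (adjusted p = 0.0781), replicate 3 (0.103) or replicate 4 (0.117) was left out or when all 32 libraries were fitted together (0.127), with a range over the alternatives from 0.000221 to 0.127. At 1 µM it no longer passed when replicate 1 (0.0836) or replicate 4 (0.129) was left out or when all 32 libraries were fitted together (0.194), with a range from 1.59e-08 to 0.194.

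CCN1, the closest relative of CCN2 on the list, moved less. It was at 2285, 2316, 2331 and 2317 CPM in the 4 control vials of 6 weeks and at 2628, 2480, 2611 and 2528 CPM at 1 µM, so that the groups did not overlap. Its log2 fold change at 1 µM was 0.15 (SE 0.0342), and the adjusted p of 0.0645 (edgeR) just missed the threshold. With the vial as a block CCN1 passed (adjusted p = 0.0496), as it did without the filter on low counts (0.0368) and with DESeq2 (0.000304), and the alternatives spanned 0.000304 to 0.348. At 0.01 and 0.1 µM the log2 fold change was 0.05 in both (SE 0.0342).

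The feedback genes of the pathway did not pass in any PFOS comparison of 6 weeks. LATS2 was at 78.9 to 81.9 CPM in the control, at 67.9 to 76.6 CPM at 0.01 µM, at 69.2 to 78.6 CPM at 0.1 µM and at 80.5 to 84.8 CPM at 1 µM. The groups at 0.01 and 0.1 µM lay below the control without overlap, while the group at 1 µM overlapped with it. The log2 fold changes of LATS2 were −0.12, −0.13 and 0.05, with adjusted p of 0.453, 0.0653 and 0.663 (edgeR). Between 1 and 0.1 µM, LATS2 differed by 0.18 (SE 0.0418) with an unadjusted p of 0.000209, but the adjusted p was 0.128. In this comparison 0 of the 8 genes were called (3 at an unadjusted p under 0.05, and 0.0857% of all genes called, 11 genes, or 23 with the vial as a block). The control libraries of AJUBA lay between 192 and 216 CPM, and those at 1 µM lay lower without overlap, between 173 and 191 CPM. The log2 fold change was −0.14 (SE 0.0438, adjusted p = 0.165). ANKRD1 varied widely between vials at 0.01 µM (63.9 to 115 CPM) and at 1 µM (82.4 to 124 CPM). At 0.1 µM it lay between 64.2 and 77.8 CPM, below the control at 82.0 to 101 CPM without overlap. Its log2 fold changes of −0.16, −0.30 and 0.14 had standard errors of 0.176 to 0.180 and did not pass (adjusted p = 0.373 at 0.1 µM, edgeR). ANKRD1 was also higher at 1 than at 0.1 µM without overlap, but did not pass (log2 fold change 0.45, SE 0.179, adjusted p = 0.745, edgeR). AMOTL1, AMOTL2 and CRIM1 had log2 fold changes between −0.09 and 0.13 at 6 weeks.

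After 12 weeks, 0 of the 8 genes were called at any concentration by edgeR's test or by DESeq2. All genes together were called at 0% (0.01 µM), 1.07% (0.1 µM) and 0.22% (1 µM) of the 12742 tested, and 0, 2 and 2 of the 8 had an unadjusted p under 0.05. The 136 genes called at 0.1 µM became 315, 59, 4 and 11 without replicates 1, 2, 3 and 4, and 26 without the third control library, which had the most liver transcripts. At 1 µM the 28 genes became 61, 10, 9 and 8 without each replicate in turn, 14 without that library and 45 with the vial as a block. For CCN2, vials 1 to 4 of the control had 479, 660.3, 571 and 489 CPM. With 0.01 µM they had 566, 455, 578 and 514 CPM, with 0.1 µM 539.6, 528, 589 and 452 CPM and with 1 µM 518, 506, 549 and 535 CPM. All 3 exposed groups overlapped with the control. The control libraries themselves were more spread than at 6 weeks, with 550 ± 84.4 against 513 ± 14.4 CPM (SD, n = 4), and the log2 fold changes were −0.06, −0.06 and −0.07 (SE 0.0974). AMOTL2 had the lowest p at 0.1 µM, where the libraries at 511, 466, 464 and 500.4 CPM lay above the control at 450.4, 437, 398 and 408 CPM. Its log2 fold change was 0.19 (SE 0.0606, adjusted p = 0.136), and it passed in the fit of all 32 libraries alone (adjusted p = 0.022, with a range from 0.022 to 0.61 over the alternatives). AJUBA was 0.21 higher on the log2 scale at 0.1 µM (SE 0.0862, adjusted p = 0.250) and LATS2 0.13 lower at 1 µM (log2 fold change −0.13, SE 0.0539, adjusted p = 0.507). Between 1 and 0.1 µM, 0 of the 8 were called (1 at an unadjusted p under 0.05), as were 0% of all genes.

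**Figure D2:**
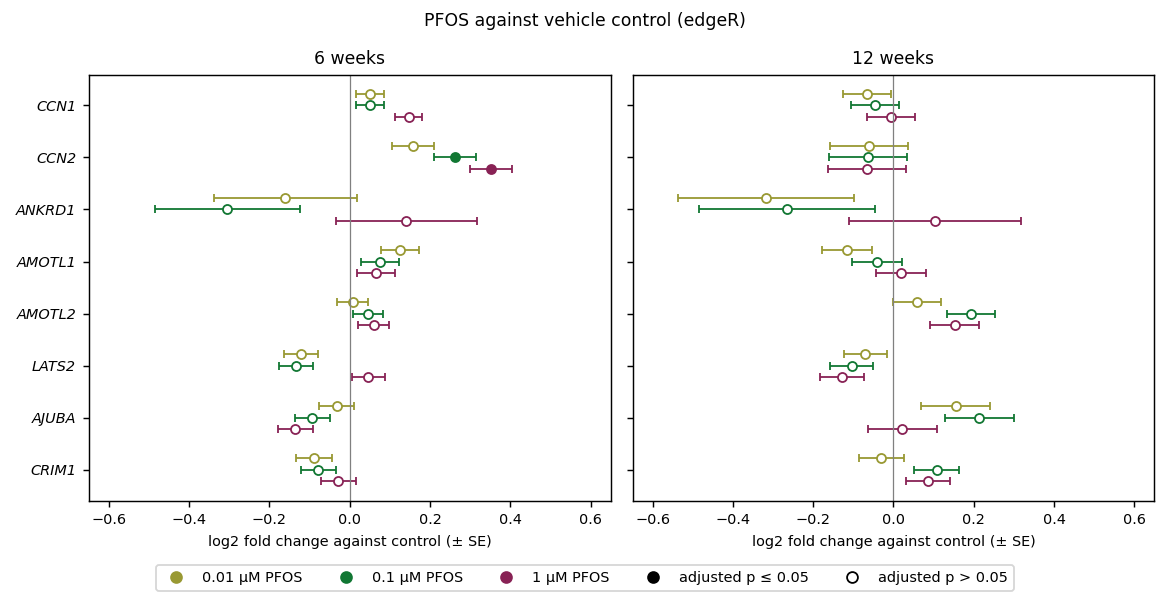
Log2 fold change (± SE, edgeR) of each of the 8 genes in PFOS cultures against the control of the same time, at 6 weeks on the left and 12 weeks on the right, with filled points for an adjusted p at or under 0.05. The 2 filled points are CCN2 at 0.1 µM (0.26) and 1 µM (0.35) after 6 weeks, and no point is filled at 12 weeks.

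Whether the effect of PFOS differed between the 2 times was tested as an interaction over all 32 libraries. By edgeR 0 of the 8 genes passed at any concentration (1, 3 and 3 had an unadjusted p under 0.05 at 0.01, 0.1 and 1 µM, and 0%, 0.208% and 0.123% of all genes were called). The 27 and 16 genes called at 0.1 and 1 µM changed with the libraries used as well. Without replicates 1, 2, 3 and 4 the 27 became 48, 14, 9 and 1 and the 16 became 25, 5, 4 and 1. They became 13 and 5 without the third control library of 12 weeks, and 41 and 26 with the vial as a block. For CCN2 the effect at 12 weeks was lower than at 6 weeks by a log2 difference of −0.21 at 0.01 µM, −0.33 at 0.1 µM and −0.41 at 1 µM (SE 0.120 each). Their adjusted p were 0.694, 0.197 and 0.163 (edgeR), so that the presence of a call at 6 weeks and its absence at 12 weeks was not shown to be a difference between the times. With DESeq2 the difference at 1 µM passed (adjusted p = 0.0359), and over the alternatives it ranged from 0.0359 to 0.534. For AJUBA the difference at 0.1 µM was 0.31 (SE 0.104, adjusted p = 0.156).

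The largest changes of the 8 genes lay between the 2 times, and ANKRD1 had the largest of all. In the control of 6 weeks, vials 1 to 4 had 101, 82.9, 101 and 82.0 CPM of ANKRD1, and in that of 12 weeks they had 32.1, 24.9, 39.6 and 35.5 CPM. With 0.01 µM PFOS the vials had 115, 78.8, 69.9 and 63.9 CPM at 6 weeks and 25.0, 33.0, 21.3 and 27.1 CPM at 12 weeks. Each vial was thus lower at the later time in both treatments. With 0.1 µM the vials had 77.5, 77.8, 77.7 and 64.2 CPM at first and 23.0, 29.4, 20.2 and 37.6 CPM later. With 1 µM the values were 106, 124, 91.4 and 82.4 CPM and then 46.2, 37.1, 30.0 and 29.0 CPM. The lowest library of 6 weeks was thus above the highest of 12 weeks, in all 16 against 16 libraries. ANKRD1 fell by 1.47 on the log2 scale in the control (SE 0.200, adjusted p = 3.28e-06), and by 1.62 at 0.01 µM (SE 0.205, adjusted p = 8.81e-07). It fell by 1.43 at 0.1 µM (SE 0.205, adjusted p = 5.51e-06) and by 1.50 at 1 µM (SE 0.197, adjusted p = 2.80e-06, edgeR's test). The 12-week mean was 0.361, 0.325, 0.371 and 0.353 times that of 6 weeks. Among the group means of one time, 1 µM was highest (101 CPM at 6 weeks and 35.6 CPM at 12 weeks) and the control next (91.6 and 33.0 CPM), but neighbours in this order differed by less than the larger of their SDs.

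LATS2 rose with time in all 4 treatments. At 6 weeks its 16 libraries lay between 67.9 and 84.8 CPM (median 78.8) and at 12 weeks between 88.1 and 110.0 CPM (median 101), again without overlap. Its log2 fold change was 0.41 in the control (SE 0.0478, adjusted p = 3.24e-08), and 0.46 at 0.01 µM (SE 0.0481, adjusted p = 2.13e-09). It was 0.44 at 0.1 µM (SE 0.0482, adjusted p = 7.01e-09) and 0.24 at 1 µM (SE 0.0479, adjusted p = 0.000269) by edgeR's test. The interaction of LATS2 at 1 µM was −0.17 (SE 0.0676, adjusted p = 0.311), so the smaller rise at 1 µM was not shown to differ from that of the control.

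AJUBA rose as well. It was at 192, 196, 196 and 216 CPM in the control of 6 weeks and at 269, 273, 202 and 215 CPM in the control of 12 weeks. Vials 1 and 2 were thus high at 12 weeks, while vials 3 and 4 lay within the range of 6 weeks. At 0.1 µM it went from between 187 and 189.5 CPM to between 271 and 285 CPM, with no overlap, and the groups at 0.01 and 1 µM did not overlap with their 6-week libraries either. The log2 fold change was 0.26 in the control (SE 0.0736, adjusted p = 0.00565), 0.46 at 0.01 µM, 0.57 at 0.1 µM and 0.42 at 1 µM (adjusted p between 3.73e-07 and 5.48e-05 in the exposed groups, edgeR). In the control AJUBA no longer passed without replicate 1 (adjusted p = 0.115), without replicate 2 (0.0965) and with only the 8 control libraries (0.0591), and the alternatives spanned 0.000257 to 0.115.

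CCN2 fell between 6 and 12 weeks in 2 of the 4 treatments, by 0.23 on the log2 scale at 0.1 µM (SE 0.0847, adjusted p = 0.0329) and by 0.31 at 1 µM (SE 0.0847, adjusted p = 0.00561). The control differed by 0.10 (adjusted p = 0.377) and 0.01 µM by −0.11 (adjusted p = 0.294). The fall at 0.1 µM no longer passed without replicate 1 (0.0983), 3 (0.0709) or 4 (0.198) and with only the 8 libraries of the 2 groups (0.0658), with a range from 0.0057 to 0.198. That at 1 µM no longer passed without replicate 1 (0.0614, with a range from 0.000205 to 0.0614). Over all 8 groups, the 6-week control had the lowest mean of CCN2, the 4 groups of 12 weeks followed between 527 and 550 CPM, with neighbours closer than their SDs, and the 3 exposed groups of 6 weeks were highest. CRIM1 was lower at 12 weeks in the control (log2 fold change −0.18, SE 0.0509, adjusted p = 0.00569) and not called in the exposed groups, where its log2 fold changes were −0.11, 0.01 and −0.06 in order of concentration. CCN1, AMOTL1 and AMOTL2 were not called in any treatment (log2 fold changes between −0.12 and 0.12). AMOTL2 at 0.1 µM was near the threshold, with a log2 fold change of 0.12 (adjusted p = 0.0564, edgeR) and 4 of 4 vials higher at 12 weeks, without overlap of the groups. It passed without replicate 3 (0.0425) and with only the 8 libraries of the 2 groups (0.0179), and the alternatives reached 0.262. CCN1 at 1 µM had −0.11 (adjusted p = 0.0826, edgeR), with 4 of 4 vials lower and no overlap, and passed with DESeq2 (0.0468), while the alternatives reached 0.286.

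In all, 4, 3, 4 and 4 of the 8 genes were called between the times in the control and at 0.01, 0.1 and 1 µM, where 36.6%, 42.7%, 40.3% and 30.1% of the 12988 genes tested were called. The number called was therefore near that of genes at large. Without replicate 3, 2498 of all genes were called at 1 µM in place of 3903. At 2-fold and over, 1 of the 8 was called in each treatment, ANKRD1, against 3.32%, 3.49%, 3.83% and 3.09% of all genes. Time in culture, passage number and the day of harvest cannot be told apart in this design. The summed counts of the liver list reached higher values at 12 than at 6 weeks in the control (309 to 1458 against 214 to 312) and at 0.01 µM (360 to 389 against 252 to 326). At 0.1 µM they were lower at 12 weeks, without overlap (311 to 393 against 399 to 500), and at 1 µM they overlapped (371 to 523 against 390 to 453). Their part in the differences between the times was not tested.

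**Figure D3:**
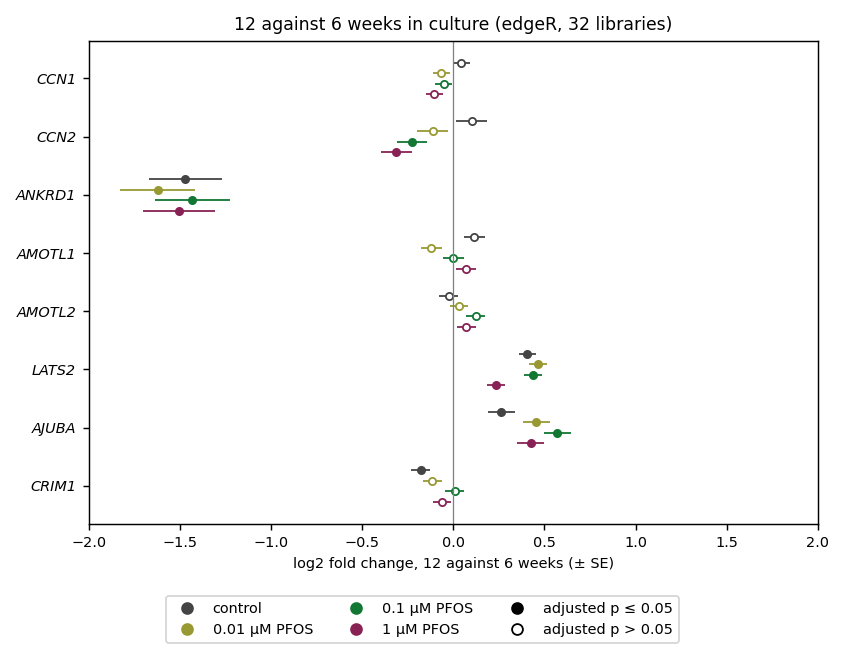
Log2 fold change (± SE, edgeR fit of 32 libraries) of the 8 genes at 12 against 6 weeks in each treatment, with filled points for an adjusted p at or under 0.05. ANKRD1 lies between −1.62 and −1.43, LATS2 between 0.24 and 0.46 and AJUBA between 0.26 and 0.57, with every point filled, while CCN1, AMOTL1 and AMOTL2 lie near 0 with open points.

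The rest of the pathway was read from lists chosen for this comparison with earlier results of these data known. YAP1, the coactivator itself, was steady at 50.3 to 59.6 TPM over all libraries and WWTR1 (TAZ) lay between 12.8 and 18.2 TPM. Of the TEAD factors, TEAD4 (33.1 to 48.2 TPM) and TEAD1 (27.4 to 35.5 TPM) had the highest levels. Under PFOS, 1 of the 8 tested genes of YAP, TAZ, TEAD and VGLL was called, VGLL4, a TEAD-binding antagonist of YAP, at 0.1 µM after 6 weeks (log2 fold change 0.18, SE 0.0492, adjusted p = 0.0377). In that comparison 4.24% of all genes were called. VGLL4 no longer passed without replicate 1, 3 or 4 or with all 32 libraries in one fit (adjusted p up to 0.277, edgeR). Of the 18 Hippo kinases and upstream regulators, 0 were called under PFOS at either time (unadjusted p under 0.05 in 2, 3 and 3 at 0.01, 0.1 and 1 µM after 6 weeks and in 1, 2 and 1 after 12 weeks). Of 15 tested other YAP and TEAD targets, 1 was called at 0.1 µM, beside 4.24% of all genes (6 weeks) and 1.07% (12 weeks). This was NUAK2, a kinase of the AMPK family. Its log2 fold change was 0.40 after 6 weeks (SE 0.104, adjusted p = 0.0436) and 0.38 after 12 weeks (SE 0.0880, adjusted p = 0.0383). By edgeR NUAK2 no longer passed at 6 weeks without replicate 2, 3 or 4, without the filter or with all 32 libraries (adjusted p up to 0.224). At 12 weeks it no longer passed without replicate 1, 3 or 4 or the third control library (up to 0.459). In CPM, NUAK2 was at 28.7 ± 2.88 (SD, n = 4) in the 6-week control against 38.1 ± 2.32 at 0.1 µM, and at 27.5 ± 3.02 against 35.9 ± 2.47 at 12 weeks. At 0.1 µM after 6 weeks the estimates of the other 14 were all below 0, and the median log2 fold change of the list was −0.08 against 0.00 for all genes, but none of the 14 passed.

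Of the 16 tested genes of actin and SRF, which respond to the same cytoskeletal tension as YAP, 5 were called at 0.1 µM after 6 weeks, all lower (2.69% of all genes were called lower). The other 11 did not pass, 13 of the 16 estimates were below 0, and the median log2 fold change of the list was −0.17 against 0.00 for all genes. The called genes were TAGLN (transgelin), with −0.54 (SE 0.138, adjusted p = 0.0474), FLNA (filamin A), with −0.29 (SE 0.0622, adjusted p = 0.0194), MYL9 (a myosin light chain), with −0.26, FHL2 (a LIM protein), with −0.21, and TPM1 (a tropomyosin), with −0.20. The count changed with the libraries and the fit. Without replicate 3, and likewise without replicate 4, 0 of the 16 were called by edgeR. With all 32 libraries in one fit it was 2, without the filter 2 and with DESeq2 7. The highest adjusted p of FHL2 over the alternatives was 0.108. At 1 µM after 6 weeks 0 of 16 were called (7 at an unadjusted p under 0.05), and 14 of the 16 estimates were below 0. At 12 weeks 0 were called by edgeR at any concentration (1, 3 and 0 at an unadjusted p under 0.05).

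Between the times, the other YAP and TEAD targets moved in both directions, as the 8 genes did. F3, the tissue factor that starts coagulation, fell by 0.87, 1.2, 1.09 and 0.96 on the log2 scale in the control and at 0.01, 0.1 and 1 µM. In the control it went from 105 ± 2.84 to 57.1 ± 13.4 CPM (SD, n = 4). NT5E (CD73, which makes adenosine) fell by 0.74, 0.70, 0.86 and 0.63 and CCDC80, a matrix protein, by 0.63, 0.75, 0.85 and 0.62. IGFBP3, which binds insulin-like growth factors, rose by 0.72, 1.00, 1.08 and 1.12, from 10.2 ± 2.10 to 16.8 ± 3.5 CPM in the control. In all 8, 10, 7 and 8 of 15 were called in the 4 treatments, where 36.6%, 42.7%, 40.3% and 30.1% of all genes were called, with 2, 4, 4 and 4 higher and 6, 6, 3 and 4 lower.

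Among the coactivators and their DNA-binding partners, 3, 4, 5 and 5 of 8 were called between the times, beside the same 36.6%, 42.7%, 40.3% and 30.1% of all genes. VGLL3, a TEAD cofactor, rose by 0.83, 0.72, 0.79 and 0.81, from 24.0 ± 3.54 to 42.7 ± 4.17 CPM in the control, and TEAD2 fell by 0.41, 0.36, 0.40 and 0.39. TEAD4 rose at 0.01, 0.1 and 1 µM (0.13, 0.30 and 0.25) and WWTR1 fell by 0.13 in each of the 3. The calls of WWTR1 were each lost without replicate 1 (and without replicate 2 or 3), and that of TEAD4 at 0.01 µM without replicate 2 or 3 and with DESeq2. YAP1 was not called in any treatment. Of the 18 Hippo kinases and upstream regulators, 6, 7, 9 and 4 were called, beside the same shares of all genes. Among them were lower NF2 (merlin, −0.25 in the control and −0.29 at 0.01 µM), lower TAOK3 (−0.30, −0.25 and −0.21 at 0.01, 0.1 and 1 µM) and higher STK3 (MST2, 0.18 in the control and 0.20 at 0.01 µM). STK4 went the other way and was lower in the control and at 0.01 and 1 µM (−0.16, −0.19 and −0.14). STK3 in the control no longer passed without replicate 4 (adjusted p = 0.0718, edgeR). Of the actin and SRF genes, 4, 5, 7 and 5 of 16 were called, beside the same shares of all genes. ACTA2 (smooth muscle actin) was lower in all 4 treatments (−0.85, −0.44, −0.43 and −0.41), as was TPM2 (−0.20, −0.27, −0.24 and −0.21). TAGLN and TPM1 were lower in the control (−0.44 and −0.19) and CNN1 at 0.01 µM (−0.47). In the exposed groups others rose: ZYX in all 3 (0.19, 0.31 and 0.29), SRF at 0.01 and 0.1 µM (0.19 and 0.20), FLNA at 0.1 and 1 µM (0.22 and 0.24) and ACTG1 at 1 µM (0.20). In the 3 exposed groups ACTA2 no longer passed without replicate 3, and also without replicate 1 at 0.01 and 0.1 µM and without replicate 2 or 4 at 1 µM (adjusted p up to 0.211, edgeR).

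**Figure D4:**
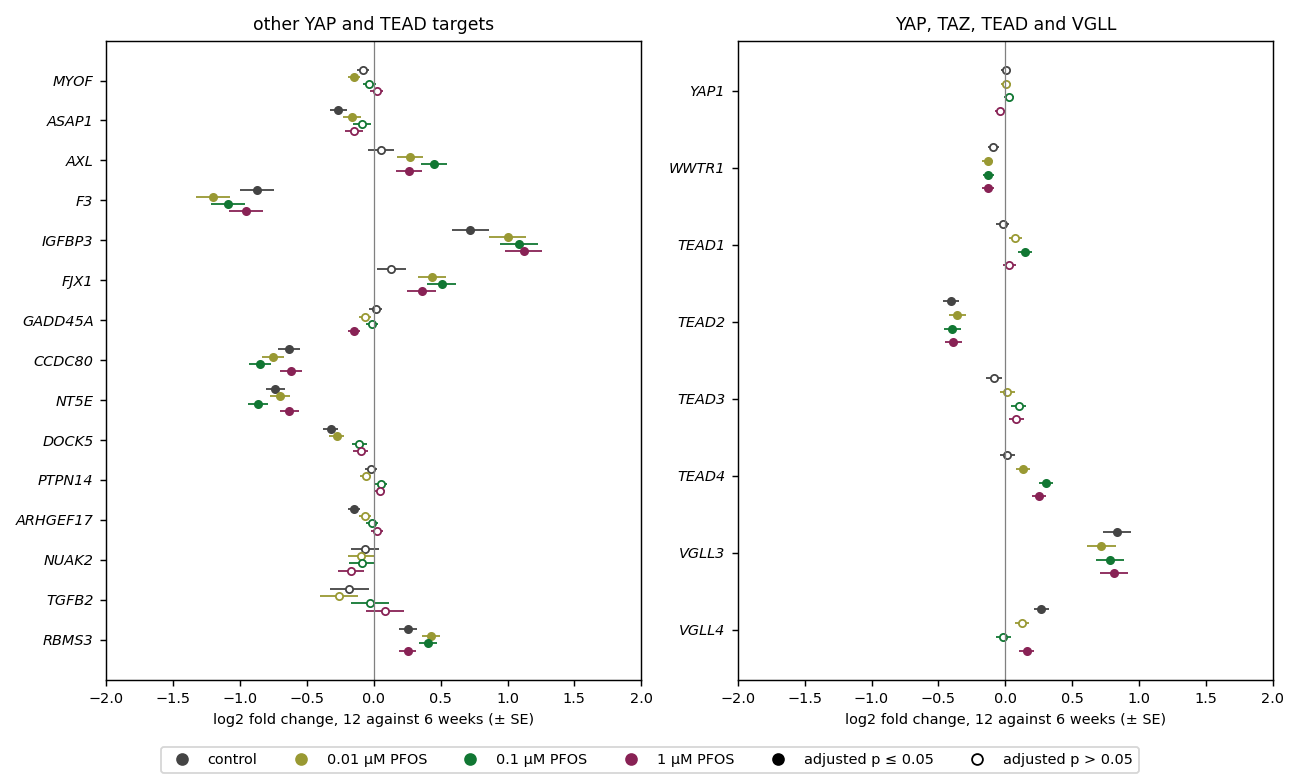
Log2 fold change (± SE, edgeR fit of 32 libraries) at 12 against 6 weeks of 15 other YAP and TEAD targets on the left and of the YAP, TAZ, TEAD and VGLL genes on the right, colored by treatment, with filled points for an adjusted p at or under 0.05. F3, NT5E and CCDC80 lie below 0 and IGFBP3 and VGLL3 above 0 in all 4 treatments, while YAP1 has open points near 0.

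How the 8 genes varied together was read within each time, over 16 libraries that share 4 vials and 4 treatments and are therefore not fully independent. The 28 pairs had a median Pearson's r of 0.139 at 6 weeks (range −0.747 to 0.768) and 0.0375 at 12 weeks (range −0.59 to 0.603). Over the 56 pairs of both times, 2 passed by both coefficients (permutation tests, two-sided, Benjamini-Hochberg adjustment), both at 6 weeks. The permutations treated the 16 libraries of a time as exchangeable, so differences between treatments enter these p. The deviations from the group means given below were not tested. ANKRD1 and CRIM1 went together, with r = 0.768 (permutation p = 0.00046, adjusted p = 0.0174) and Spearman's rho = 0.824 (permutation p = 0.00014, adjusted p = 0.00392). The r of this pair was 0.722 without the 2 farthest libraries and 0.774 for the deviations from the group means. CCN2 and AJUBA went in opposite directions, with r = −0.747 (permutation p = 0.00072, adjusted p = 0.0174) and rho = −0.835 (permutation p = 0.0001, adjusted p = 0.00392), −0.715 without the 2 farthest libraries and −0.523 for the deviations. CCN1 and CCN2 had r = 0.767 (permutation p = 0.00093, adjusted p = 0.0174) and rho = 0.706 (permutation p = 0.00301, adjusted p = 0.0521), with r = 0.428 for the deviations from the group means. At 12 weeks 0 pairs passed.

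As a description, the genes most like CCN1, CCN2 and ANKRD1 were taken from 12980 genes by Pearson's r of log2 CPM over the 32 libraries, which share vials, treatments and times. For ANKRD1 these were WNK4 (0.982), F3 (0.977), PTDSS1 (0.971), DACT1 (0.967) and ADRA1B (0.966). Within the 16 libraries of one time the r of F3 with ANKRD1 was 0.902 at 6 weeks and 0.844 at 12 weeks, and that of WNK4 0.891 and 0.871. The others were lower at 6 weeks, with 0.751 and 0.896 for PTDSS1, 0.668 and 0.804 for DACT1 and 0.807 and 0.724 for ADRA1B. For CCN2 they were YIPF3 (0.841), TMT1A (0.813), LGALS12 (0.784), CDON (0.775) and ST3GAL5 (0.771). Within 6 and 12 weeks YIPF3 had 0.816 and 0.801, and the others lay between 0.673 and 0.843. For CCN1, whose level hardly varied, the highest values were lower, from ARFRP1 (0.624), CES1 and MAP3K20 (both 0.607) and HLX (0.588) to UNKL (0.568).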

How the data were processed

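The authors enriched poly(A) RNA with oligo(dT) beads, prepared stranded libraries, sequenced them on a DNBSEQ platform and, per the labels' processing notes, used HISAT2 2.0.4, Bowtie2 2.2.5, RSEM 1.2.8 and GRCh38.p14. They deposited expected counts per gene (estimated by RSEM, not normalized, 7.68% of values not whole) and TPM values, with equal sums in all libraries (999999.6 to 1000000.9). Their FPKM and normalized tables were not used here. All columns were mapped to samples by title, with 0 left unmapped.

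Expected counts were rounded and tested with edgeR 4.0.16 in R 4.3.3 (TMM, filterByExpr, robust quasi-likelihood fit, two-sided, Benjamini-Hochberg adjustment over all genes tested). The 16 libraries of a time were fitted together for PFOS comparisons (12836 genes at 6 weeks, 12742 at 12 weeks), and all 32 (12988 genes) for comparisons between times and for interactions. A gene was called at an adjusted p at or under 0.05. The study's methods name DESeq2, which was run as an alternative (1.42.0). Total counts of 17907057 to 18553350 per library limit the precision of low genes.

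All 8 genes were tested in every comparison. The figures show all 8 against the control of the same time and between the times. In the text, some comparisons have values for only part of the 8, among them the interactions and those between PFOS concentrations. The other lists were other YAP and TEAD targets, Hippo regulators, coactivators and TEAD factors, actin and SRF, immediate early and proliferation genes. Further lists held granulosa, liver, theca and stroma, and endothelial, epithelial and immune markers. Only some of the called genes of these lists are named, at most 5 per list and comparison, from those with the largest change. For CCN1, CCN2 and ANKRD1 the 5 genes of highest r are named. Members and lists were chosen with earlier results of these data known. Within groups, 48 pairs of libraries differed beyond sampling noise (chi-square per degree of freedom 2.3 to 16.2).

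The labels state that each vial's flask was divided into the 4 groups, so replicate numbers pair the samples. Same-numbered libraries of 12 pairs of groups at the same time had a mean correlation of deviations between −0.0929 and 0.153, negative for 1 pair (control and 1 µM at 12 weeks). The vial as a block was an alternative, as were RLE factors, no filter, other sets of libraries, DESeq2 and leaving out each replicate.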

Additional observations from a re-analysis of the deposited data

Results flagged for a closer look

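Each gene was searched in each group of 4 libraries for 1 library far from the other 3 (Dixon's test, 95% level), which chance gives in about 1 of 20 groups, and 4 of 64 groups were found. In the 0.01 µM group of 6 weeks, replicate 1 had the highest CCN1 at 2505 CPM, with the others at 2352 to 2361 CPM. In the 0.1 µM group of 6 weeks, replicate 4 had the lowest ANKRD1 at 64.2 CPM, with the others at 77.5 to 77.8 CPM, and also the highest AJUBA at 189.5 CPM, with the others at 187.0 to 187.4 CPM, a gap that is small in size. In the 0.01 µM group of 12 weeks, replicate 3 had the lowest AJUBA at 244.6 CPM, with the others at 273.3 to 277.1 CPM.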

How the results depend on the processing

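The number of the 8 genes called stayed within 1.5 times its value in 139 of the 151 combinations of comparison and alternative, and no log2 fold change of the 8 genes that passed in any setting changed sign (197 values kept their side of the threshold, 15 lost it and 8 gained it). Estimates that passed in no setting could cross 0. CCN2 at 12 weeks ranged from −0.16 to 0.10 at 0.01 µM, from −0.14 to 0.03 at 0.1 µM and from −0.12 to 0.05 at 1 µM, and ANKRD1 at 1 µM after 6 weeks from −0.02 to 0.24. At 0.1 µM after 6 weeks the 1 call (CCN2) became 0 with all 32 libraries in one fit, and 0 to 1 when a replicate was left out. At 1 µM after 6 weeks the 1 call (CCN2) became 0 with all 32 libraries in one fit, 2 (CCN1 and CCN2) without the filter on low counts and with DESeq2, and 0 to 1 when a replicate was left out. With the vial as replicate block, 2 genes (CCN1 and CCN2) were called at 1 µM after 6 weeks, and the block changed no other call among the 8. At 0.1 µM after 12 weeks the 0 calls became 1 (AMOTL2) with all 32 libraries in one fit. DESeq2 called 1 difference between the times at 1 µM (CCN2). The cause of these changes was not tested. Leaving out the third control library of 12 weeks, chosen after seeing its liver transcripts, changed no count of calls among the 8 genes, but took the genes called at 0.1 and 1 µM after 12 weeks from 136 to 26 and from 28 to 14. With fold changes mostly under 1.5 in size between PFOS groups and 4 vials per group, small differences of ANKRD1, whose SE was 0.176 to 0.219, were not detectable.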

Other observations

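Immediate early genes, which like the CCN genes respond to serum and tension, were called between the times in the control in 9 of 14 cases (36.6% of all genes were called), all higher, with a median log2 fold change of 0.74 against 0.00 for all genes. EGR1 rose by 1.31 (SE 0.208, adjusted p = 2.5e-05, edgeR) and FOS by 0.83 (SE 0.146, adjusted p = 8.36e-05) in the control. At 0.01, 0.1 and 1 µM, 8, 2 and 5 of 14 were called (42.7%, 40.3% and 30.1% of all genes), in both directions. IER3 fell in all 3 (−0.54, −0.92 and −0.75). EGR1, FOS and FOSB rose at 0.01 µM (0.86, 0.62 and 0.47) and at 1 µM (0.98, 0.74 and 0.57). NR4A3 rose at 0.01 and 0.1 µM (0.81 and 1.21), and ATF3 rose at 1 µM (0.29). Against the control of 12 weeks, 4 of 14 were lower at 0.1 µM (FOSB −0.91, IER3 −0.81, ATF3 −0.80 and JUN −0.59) and 1 at 1 µM (ATF3 −0.50). The shares of all genes called were 1.07% and 0.22%. At 0.1 µM after 6 weeks, where 4.24% of all genes were called, EGR1 was higher (0.68) and NR4A3 lower (−1.32). The 4 calls at 12 weeks became 1 without replicate 3 or 4 and 2 without replicate 2 or the third control library, that of ATF3 at 1 µM was lost without any of these, and both calls at 6 weeks were lost without replicate 3. The difference of the 0.1 µM effect between the times passed for JUN (−0.78, adjusted p = 0.00244) and ATF3 (−0.72, adjusted p = 0.0025), and no longer without replicate 4 (0.161 and 0.336, edgeR).

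Of 12 proliferation genes, 7, 9, 11 and 7 were called between the times in the control and at 0.01, 0.1 and 1 µM, all higher at 12 weeks, where 36.6%, 42.7%, 40.3% and 30.1% of all genes were called, and 0 were called under PFOS at either time (1 or 2 at an unadjusted p under 0.05 in each comparison). Of 8 tested granulosa cell genes, 2, 5, 4 and 4 were called between the times, beside the same shares of all genes. CYP11A1, which starts steroid synthesis, fell by 2.03, 1.93, 2.95 and 1.76 from a low level of at most 2.58 TPM. NR5A2, at most 0.6 TPM, was lower in all 4 treatments (−1.19, −1.205, −2.11 and −1.27). STAR, at most 2.95 TPM, was lower at 0.01, 0.1 and 1 µM (−0.95, −1.15 and −0.92). INHBA was lower at 0.01 and 0.1 µM (−0.74 and −0.59) and FOXL2 at 0.01 µM (−0.86). AMH alone was called higher, at 1 µM (0.30). Of the theca and stroma genes, PDGFRA fell in all 4 treatments (−1.87, −3.33, −4.07 and −2.68) from at most 0.69 TPM, LUM was higher in the control (0.36) and COL1A1 lower at 0.01 µM (−0.25). Of the endothelial, epithelial and immune genes, PECAM1 fell in all 4 (−2.65, −2.10, −3.15 and −3.15) from at most 0.32 TPM, CD68 fell at 0.01, 0.1 and 1 µM (−0.48, −0.63 and −0.46), VWF fell at 0.1 and 1 µM (−0.89 and −0.98) and KRT19 rose in the control (0.20). The calls of AMH, LUM, COL1A1, VWF and KRT19, and that of CD68 at 1 µM, were lost without replicate 3. Of the liver genes, 5 of 6 tested were higher at 0.1 µM and 4 of 6 at 1 µM after 6 weeks. The shares of all genes called were 4.24% and 0.28%. ALB, AFP, AHSG and APOB were called at both, with log2 fold changes of 6.81 to 7.92 and 6.67 to 7.52 (edgeR). At 12 against 6 weeks 4 were higher in the control and at 0.01 µM. At 0.1 µM 1 was lower (SERPINA1, −0.45, lost without replicate 1, 2 or 4). At 1 µM 0 were called (0 at an unadjusted p under 0.05 by edgeR). Beside these stood 36.6%, 42.7%, 40.3% and 30.1% of all genes.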
